A study of Homo sapiens with 36 samples.

Results

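The genes described here are 34 interferon-stimulated genes, chosen by a list of symbols, among the 62757 genes counted in each RNA-seq library of HCT-116 cells. These cells, an established line from a human colorectal carcinoma, were used to ask how they respond to oxaliplatin (OXPT), a platinum compound that damages DNA, when the ubiquitin ligase subunit FBXW7 or the class IIa deacetylase HDAC4 is lost. All 34 symbols were found, each with 1 gene identifier. The genes were followed over 24 libraries of polyA RNA in 8 groups of 3. The FBXW7-/- cells (KO; whether they are 1 clone is not stated) carried control esiRNA against Renilla luciferase (esiCT), esiRNA against HDAC4 (esiHDAC4), or esiCT together with the HDAC4 degrader #11, in each case for 48 h. Each of these was left untreated, with solvent only, or received 50 µM OXPT for the last 24 h. For #11, the label entries give 1 µM or 10 µM, so the dose is not settled. By the paper's account, this degrader also removes the other class IIa deacetylases. The #11 groups thus do not stand for loss of HDAC4 alone. WT cells, untreated or with OXPT, form the remaining pair of groups, and their label entries name either control or HDAC4 esiRNA, so that every statement on WT holds for one or the other. Another 12 libraries of WT cells name #11 or HDAC4 esiRNA in their labels. These labels contradict each other on whether OXPT was given, and the 12 libraries enter no test. No label says that replicates came from separate cultures, and p-values then measure only the spread between these libraries.

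Interferons are secreted proteins that signal through cell surface receptors and the JAK kinases to a complex with STAT2 and IRF9, which binds the interferon-stimulated response element (ISRE) in gene promoters. The genes switched on in this way encode sensors of foreign or misplaced nucleic acid, transcription factors that feed the signal forward, and effectors that block viral entry, translation or replication. Several are also reached without interferon, through IRF1, IRF3 or p53, and cytosolic DNA after DNA damage can engage CGAS and STING1.

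Promoter sequences were taken from RefSeq on GRCh38.p14, from 250 bases before to 50 bases after each annotated start, and 24 of the 34 genes had one. The genes without an entry were CGAS, STING1, IRF7, IFIT2, OAS2, OASL, MX2, IFITM2, USP18 and TRIM22. The core of the ISRE, searched as GAAANNGAAA on both strands, was found in 17 of the 24 genes (70.8%) and in 4.38% of all 27305 genes in the table. The GAS core TTCNNNGAA, the site of STAT dimers and a palindrome as searched, was found in 9 of the 24 genes (37.5%) and in 9.38% of all genes. In 5 genes both were present, and in BST2, IFI27, IFITM1 and MX1 a match of one overlapped a match of the other. A match describes letters in the window, not a bound site. The stretches before the start that hold the matches are shown for the 4 genes with a window that were called in an OXPT comparison below (ISG15, IFI6, IFITM3 and BST2), and for IFIT1 and ISG20, which hold the same core and were called in none. Capitals mark ISRE matches on either strand, and each sequence runs 5′ to 3′ along the strand of its gene.
ISG15 (chr1:1013364-1013419, plus strand): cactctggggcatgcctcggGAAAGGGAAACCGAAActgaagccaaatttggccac
IFI6 (chr1:27672256-27672368, minus strand): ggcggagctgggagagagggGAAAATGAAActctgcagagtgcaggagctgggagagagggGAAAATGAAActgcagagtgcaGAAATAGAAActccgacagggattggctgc
IFITM3 (chr11:320866-320932, minus strand): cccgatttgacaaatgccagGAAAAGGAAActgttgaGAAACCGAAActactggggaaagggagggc
BST2 (chr19:17405725-17405780, minus strand): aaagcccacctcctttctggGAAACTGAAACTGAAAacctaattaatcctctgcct
IFIT1 (chr10:89392487-89392549, plus strand): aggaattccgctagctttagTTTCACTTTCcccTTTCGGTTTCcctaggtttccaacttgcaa
ISG20 (chr15:88638927-88638976, plus strand): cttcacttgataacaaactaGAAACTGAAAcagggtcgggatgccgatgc
The window of ISG15 held 2 overlapping matches, that of IFI6 3, and those of IFITM3, BST2 and IFIT1 2 each. That of ISG20 held 1.

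Libraries held 10725966 to 20527222 reads counted on genes (median 14510758), and 7.74% to 22.3% of reads were unmapped, the most in KO esiCT OXPT replicate 3. In 4 libraries, all numbered replicate 3, short genes (under 2820 bases of exon) stood higher than long genes (over 9022 bases) relative to the other libraries. This length shift was 1.09 on the log2 scale in KO esiCT OXPT, 1.10 in WT OXPT, 0.74 in KO esiHDAC4 OXPT and 0.72 in WT untreated, against −0.85 to 0.30 in the other 20 libraries. The lowest was WT untreated replicate 2. Values without these 4 libraries are given beside the genes called in an OXPT comparison. The level of HDAC4 was 10.9 ± 3.48 CPM (library-scaled counts with TMM normalization; SD, n = 3) in untreated KO esiHDAC4 and 19.1 ± 5.45 in KO esiCT, a log2 difference of −0.82 that was not called (adjusted p = 0.561, edgeR quasi-likelihood test). FBXW7 was 16.9 ± 1.34 CPM in untreated KO esiCT and 21.1 ± 3.60 in WT, and whole-gene counts do not show a small deletion. Epithelial markers summed to 5117 to 21571 CPM, led by keratins, with KRT20 at 0.33 to 3.82. PTPRC, the defining marker of blood cells, was at 0 in 20 of 24 libraries.

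**Figure D1:**
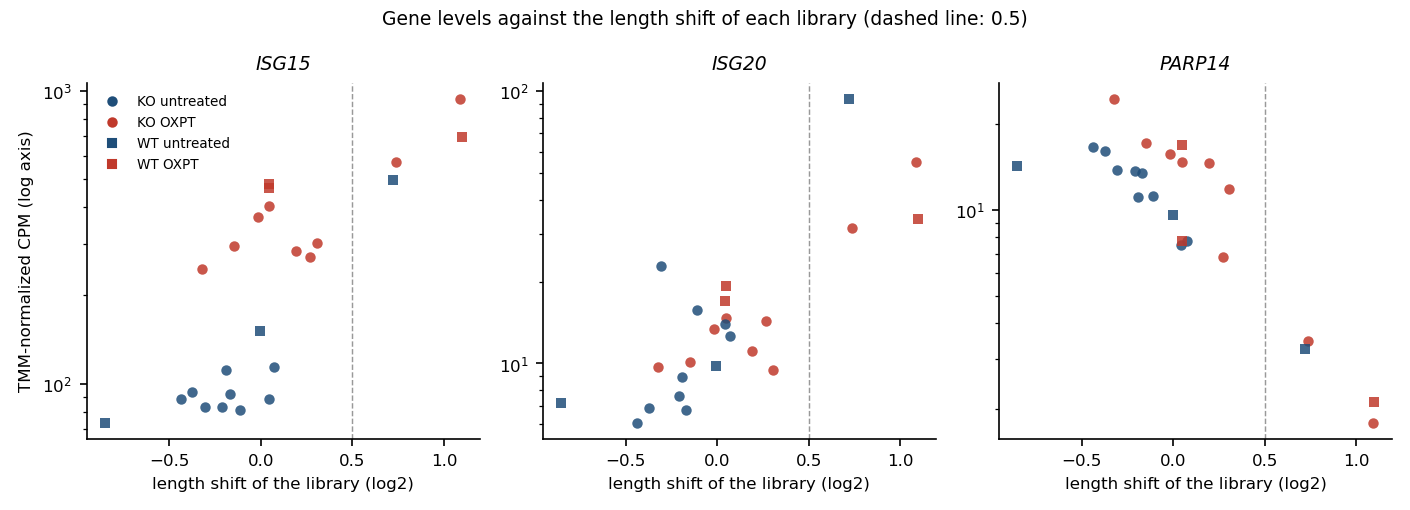
Level of ISG15, ISG20 and PARP14 (vertical axes, TMM-normalized CPM, log scale) against the length shift of each library (horizontal axes, log2); 1 point per library, circles KO, squares WT, blue untreated, red OXPT. The 4 libraries right of the dashed line at 0.5 held 31.4 to 93.5 CPM of ISG20 and 1.79 to 3.45 CPM of PARP14, while the other 20 held 6.05 to 22.7 and 6.81 to 24.5.

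Single libraries departed from their group for several of the 34 genes. WT untreated replicate 3 held more than 2-fold the mean of the other WT untreated libraries for 9 of the 20 tested genes (STING1, IRF1, IRF7, OASL, IFITM2, IFITM3, ISG15, ISG20 and IFI35), and less than 0.5 of it for IFIH1, PARP9 and PARP14. WT untreated replicate 2, which is not one of the 4, held less than 0.5 of the mean of the others for 11 of the 20 and more than 2-fold for PARP14. In KO esiCT OXPT replicate 3 the same limits were passed upwards by IFITM2, IFITM3, ISG15 and ISG20, and downwards by IFIH1 and PARP14. In KO esiHDAC4 OXPT replicate 3 they were passed upwards by IFIT1, OASL, ISG20 and IFI6, and downwards by PARP14. In WT OXPT replicate 3 they were passed by IFIH1 and PARP14 alone, both downwards. The part of transcript length or RNA quality in these departures was not tested.

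The cells expressed a selective set of the 34 genes. A mean of at least 64 counts in at least 1 group, the condition for testing, was met by 20 of them. Per kilobase of exon, ISG15 stood first with a median of 299 CPM per kb, followed by IFITM3 with 104, IFITM2 with 34.9 and IFI6 with 22.7. STING1, IFI35, IRF7 and STAT2 lay between 4.08 and 7.49. These orders compare medians over 24 libraries and not groups.

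The 14 untested genes had medians of at most 1.85 CPM, and 10 of the 34 had a median under 1 CPM. Most of them are classical responders to interferon. IFI44L had 1 read in 1 library and none in the other 23, and MX2, a GTPase that restricts viruses, had 16 reads in all with 14 libraries at 0. CGAS, the sensor of cytosolic DNA, had 29 reads in all and was at 0 in 12 libraries, the highest single count being 5. OAS2 was at 0 in 5 libraries, and RIGI, IFIT3, OAS1, IFITM1 and IFI44 had medians of 4.5 to 12 counts. IRF9, IFIT2, MX1 and IFI27 reached 44 to 70 counts in their highest library. A count of 0 in a library allows up to 3 reads, and expression below that was not detectable at this depth.

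**Figure D2:**
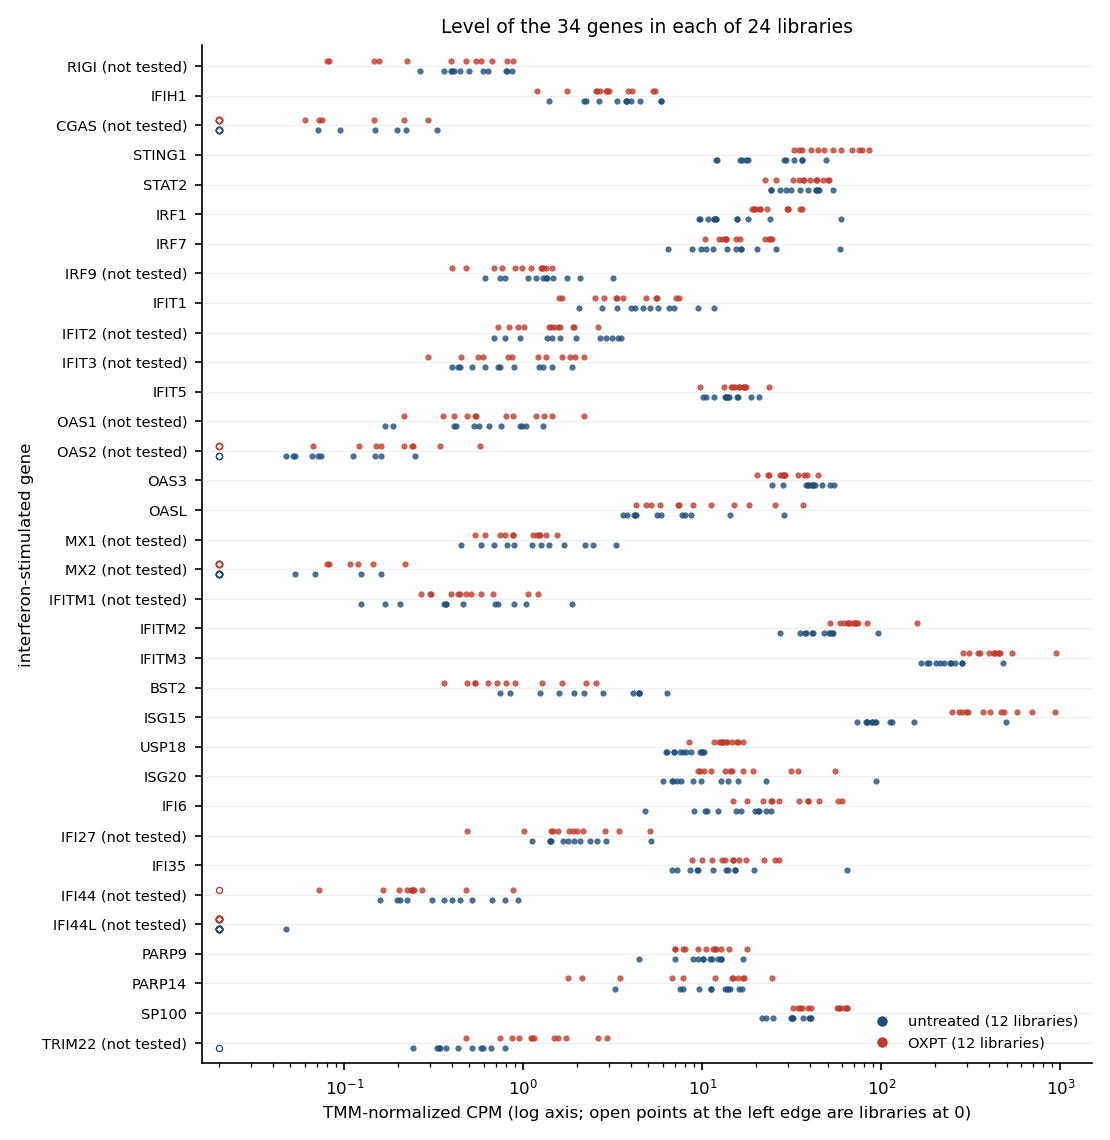
Level of each of the 34 genes in each of the 24 libraries (horizontal axis, TMM-normalized CPM on a log scale; blue untreated, red OXPT; open points at the left edge are libraries at 0), ordered by role. The 20 tested genes have medians from 1.43 to 297 CPM and the 14 untested ones, marked on the axis, from 0 to 1.85.

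OXPT was the only treatment under which any of these genes was called, which required a fold change over 1.5 and, in edgeR's quasi-likelihood test, a p below 0.05 after Benjamini-Hochberg adjustment. In KO esiCT, 3 of the 20 tested genes rose, ISG15, STING1 and IFITM3, and none fell, where 11.3% of all 12356 tested genes were called and 6.23% rose. In KO esiHDAC4, 5 rose, these 3 with IFI6 and USP18, where 12% of all genes were called and 6.44% rose. In KO #11, ISG15 alone rose, where 9.51% of all genes were called and 5.94% rose. In WT, USP18 rose and BST2 fell, where 10.7% of all genes were called and 5.1% rose. The members' called shares were thus 15% of 20 in KO esiCT, 25% in KO esiHDAC4, 5% in KO #11 and 10% in WT. Those in KO esiCT and WT were near the background, that in KO #11 was below it and that in KO esiHDAC4 was above it. Whether the shares differ from the background was not tested.

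The median log2 fold change over the 20 tested genes was 0.54 in KO esiCT, 0.66 in KO esiHDAC4, 0.28 in KO #11 and 0.18 in WT, against −0.06 to 0.02 over all genes. These medians were not adjusted for gene length, and 9 of the 34 genes had under 3 kb of exon. The libraries with a length shift over 0.5 included OXPT libraries of KO esiCT, KO esiHDAC4 and WT, and a library of untreated WT. An unadjusted p under 0.05 was reached by 8, 10, 5 and 7 of the 20. With the replicate number as a block, the called genes were 6, 7, 3 and 6, where 15.7%, 16.7%, 13.9% and 15.3% of all genes were called. Without the 4 libraries with a length shift they were 6, 7, 3 and 10, where 16%, 17.5%, 21.1% and 17.1% of all genes were called. In WT the 10 were BST2 and OAS3, which fell, and IFITM2, IFITM3, IRF1, ISG15, ISG20, SP100, STING1 and USP18, which rose. The untreated WT libraries left in that fit had length shifts of −0.005 (replicate 1) and −0.85 (replicate 2). Those with OXPT had 0.045 and 0.046, so the WT libraries in this fit still differed in length shift. The part of length in these calls was not tested.

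**Figure D3:**
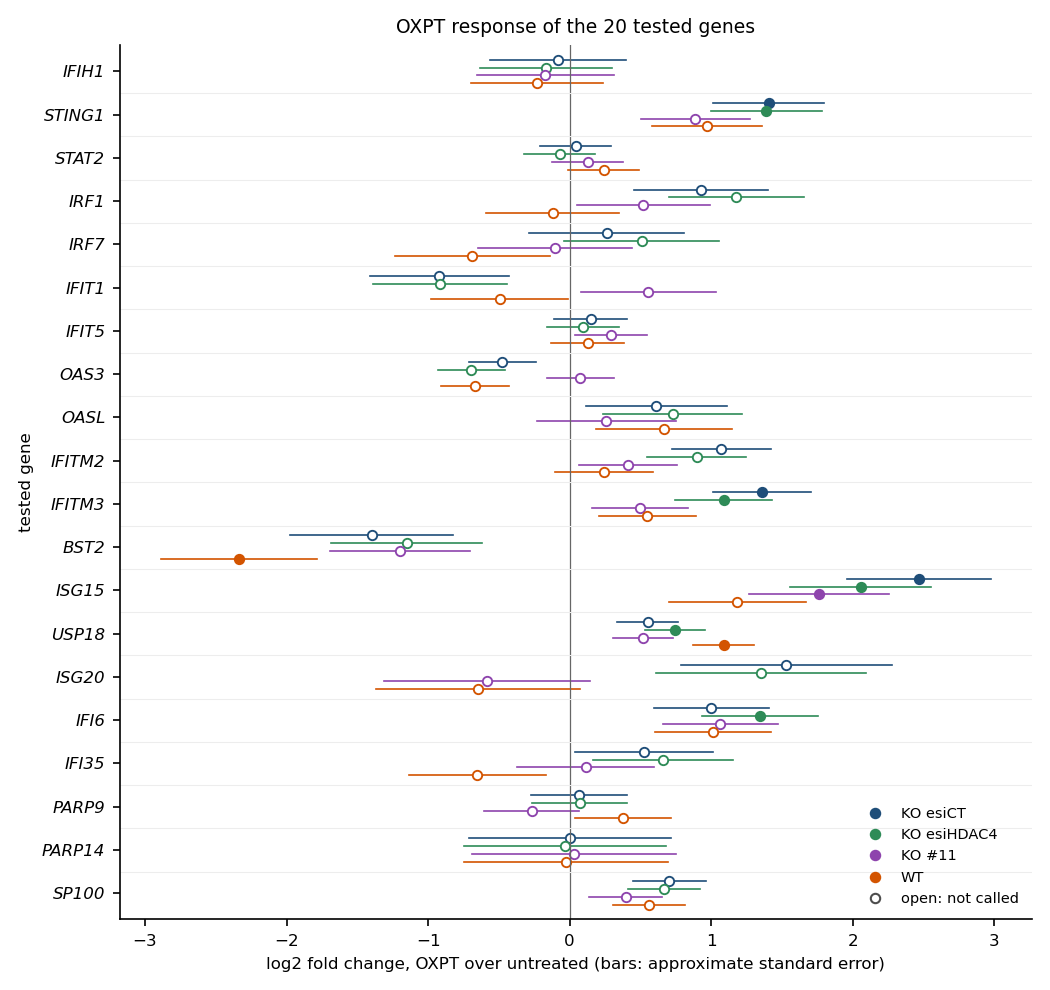
Log2 fold change of OXPT over untreated for the 20 tested genes in KO esiCT (blue), KO esiHDAC4 (green), KO #11 (purple) and WT (orange), with bars of 1 approximate standard error; filled points are called. ISG15 lies at 2.47, 2.06, 1.76 and 1.18 in this order, BST2 lies below 0 in all 4, and PARP14 lies between −0.03 and 0.03.

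ISG15, a ubiquitin-like protein that is joined to other proteins and also secreted, had the largest rise of the 20 tested genes in each KO background. In KO esiCT it was at 91.9, 83.3 and 114 CPM untreated and at 296, 370 and 936 CPM with OXPT. The groups did not overlap, and the highest value was that of replicate 3, a library with a length shift. The log2 fold change was 2.47 (approximate standard error, SE, 0.51, adjusted p = 0.0028, edgeR), and 1.81 without the 4 libraries with a length shift.

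In KO esiHDAC4, ISG15 was at 93.6, 88.6 and 112 CPM untreated and at 247, 405 and 570 with OXPT, a log2 fold change of 2.06 (SE 0.50, adjusted p = 0.0092, edgeR), and 1.73 without the 4 libraries with a length shift. In KO #11 it was at 81.6, 88.8 and 83.2 CPM untreated and at 284, 303 and 271 with OXPT, a log2 fold change of 1.76 (SE 0.49, adjusted p = 0.027, edgeR), and 1.74 without the 4 libraries. Neither pair of groups overlapped, and the KO #11 libraries were the closest together. The call in KO #11 was lost when any of the 3 untreated libraries or OXPT replicate 1 or 2 was left out (log2 fold change 1.71 to 1.79, adjusted p = 0.079 to 0.10), while those in KO esiCT and KO esiHDAC4 held in all 24 fits that left out 1 library.

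In WT, ISG15 was at 151, 73.4 and 498 CPM untreated and at 464, 481 and 695 with OXPT. The groups overlapped through replicate 3 of the untreated cells, and the log2 fold change of 1.18 was not called (SE 0.49, adjusted p = 0.127, edgeR). It was 2.30 without that library (adjusted p = 0.0012) and was called with the replicate block too (1.38, adjusted p = 0.021). The difference between the responses of KO esiCT and WT, tested as an interaction, was 1.28 on the log2 scale (SE 0.68, adjusted p = 1.00) and was not called.

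USP18, the protease that removes ISG15 and dampens interferon signalling, was called in WT and KO esiHDAC4. In WT it was at 6.98, 6.23 and 6.32 CPM untreated and at 12.6, 13.1 and 15.9 with OXPT, a log2 fold change of 1.09 (SE 0.22, adjusted p = 0.0023, edgeR) that was called in all 24 fits without 1 library and was 0.98 without the 4 libraries with a length shift. In KO esiHDAC4 it was at 7.50, 8.68 and 8.15 CPM untreated and at 14.7, 12.4 and 13.7 with OXPT, and it rose by 0.74 on the log2 scale (SE 0.21, adjusted p = 0.026, edgeR). Neither pair overlapped.

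The call for USP18 in KO esiHDAC4 was lost when any 1 library of the compared groups was left out (0.65 to 0.80, adjusted p = 0.050 to 0.135), and the value without the 4 libraries was 0.73 and called (adjusted p = 0.013). In KO esiCT, USP18 went from 6.90, 7.82 and 9.70 to 15.6, 11.6 and 8.45 CPM, and the groups overlapped through OXPT replicate 3. The log2 fold change of 0.55 was not called (adjusted p = 0.101), whereas without that library it was 0.74 and called (adjusted p = 0.032). In KO #11 the levels were 9.99, 9.95 and 10.2 CPM untreated and 12.9, 13.5 and 16.8 with OXPT, without overlap, and the log2 fold change of 0.52 was not called (adjusted p = 0.136).

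ISG20, an exonuclease that degrades single-stranded RNA, was called in no comparison, and its values followed single libraries. In WT it was at 9.79, 7.18 and 93.5 CPM untreated and at 16.9, 19.3 and 34.1 with OXPT. The log2 fold change of −0.65 (adjusted p = 0.636, edgeR) became 1.12 without the 4 libraries with a length shift (adjusted p = 0.026), where it was called. In KO esiCT it was at 6.76, 7.57 and 12.7 CPM untreated and at 10.2, 13.4 and 55.1 with OXPT, a log2 fold change of 1.53 (adjusted p = 0.196) that was 0.41 without them. In KO #11 it was at 15.8, 13.9 and 22.7 CPM untreated and at 11.1, 9.50 and 14.3 with OXPT (log2 fold change −0.58, adjusted p = 0.681).

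**Figure D4:**
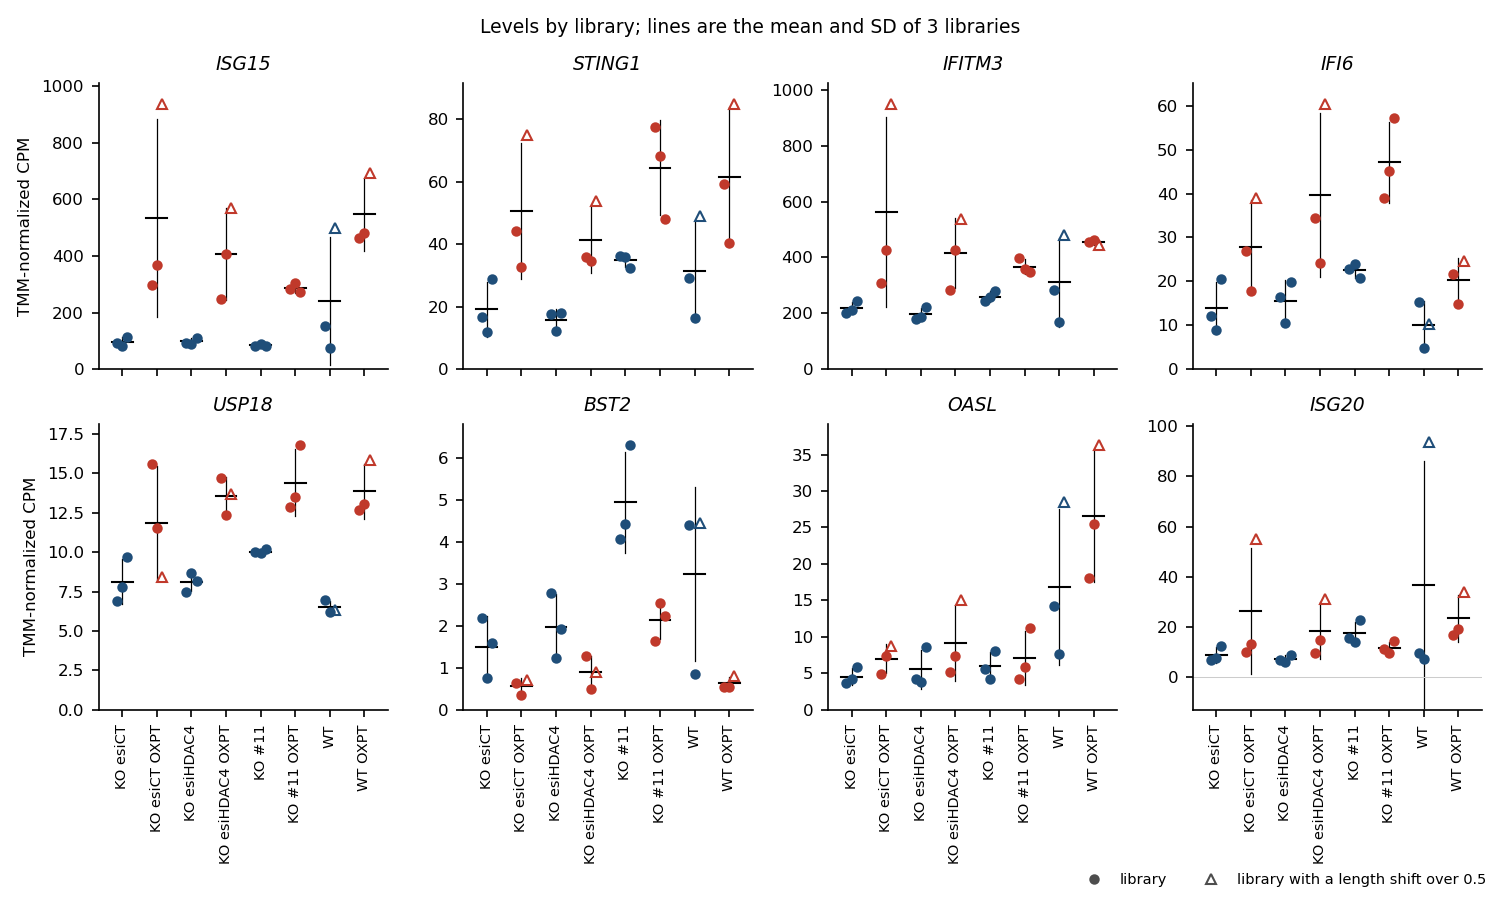
Levels (TMM-normalized CPM, linear axes) of 8 genes in each library of the 8 groups, blue untreated and red OXPT, with the mean (horizontal line) and SD (vertical line) of 3 libraries; triangles are libraries with a length shift over 0.5. ISG15 with OXPT lies at 247 CPM or more in all 12 libraries and untreated at 151 or less in 11 of 12, the exception being the triangle of WT at 498.

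IFITM3, a membrane protein that blocks the fusion of enveloped viruses in endosomes, was the most abundant of the restriction factors. In KO esiCT it was at 202, 212 and 244 CPM untreated and at 309, 428 and 949 with OXPT, and in KO esiHDAC4 at 180, 185 and 222 untreated and at 284, 426 and 538 with OXPT. Neither pair overlapped. It rose by 1.36 on the log2 scale in KO esiCT (SE 0.35, adjusted p = 0.014, edgeR) and by 1.09 in KO esiHDAC4 (SE 0.34, adjusted p = 0.043, edgeR). Without the 4 libraries with a length shift these values were 0.77 and 0.85, and both were still called.

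The call for IFITM3 in KO esiCT was lost without OXPT replicate 3 (0.74, adjusted p = 0.139), untreated replicate 1 or untreated replicate 2. That in KO esiHDAC4 held in 8 of 24 fits that left out 1 library, with log2 fold changes of 0.85 to 1.31. In KO #11, IFITM3 was at 243, 257 and 280 CPM untreated and at 397, 357 and 347 with OXPT, without overlap (log2 fold change 0.50, adjusted p = 0.41). In WT it was at 283, 167 and 481 CPM untreated and at 455, 462 and 444 with OXPT, with overlap through untreated replicate 3 (0.55, adjusted p = 0.348), and without that library the value was 1.02 and called (adjusted p = 0.045).

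IFITM2, its close paralog, went the same way at lower levels, with means ± SD (n = 3) of 44.5 ± 5.69 and 93.6 ± 55.2 CPM in KO esiCT and log2 fold changes of 1.07, 0.90, 0.41 and 0.24 in KO esiCT, KO esiHDAC4, KO #11 and WT. None was called, the adjusted p in KO esiCT being 0.052. There it was called with the replicate block (0.99, adjusted p = 0.030) and without OXPT replicate 1 or 2 or WT untreated replicate 2 or 3 (1.054 to 1.306). Reads that match both genes equally well were not counted, so the split between the paralogs is uncertain. The third paralog, IFITM1, had 2 to 26 counts per library.

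BST2 (tetherin), which holds budding virus particles on the cell surface, was the one gene of the 20 tested that was called lower in the fit of all 24 libraries. It was scarce, with 5 to 94 counts per library. In WT it was at 4.41, 0.85 and 4.44 CPM untreated and at 0.54, 0.54 and 0.80 with OXPT. The untreated libraries were split, and replicate 2, the library with the lowest length shift, stood only just above the OXPT libraries. The groups did not overlap, and the log2 fold change of −2.34 (SE 0.55, adjusted p = 0.0085, edgeR) was called in all 24 fits without 1 library and without the 4 libraries with a length shift (−2.20, adjusted p = 0.036). It was not called with replicates 1 and 2 of every group alone (−2.19, adjusted p = 0.055). With a fit of the WT libraries alone BST2 missed the count minimum and could not be tested.

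In the KO groups, the log2 fold changes of BST2 under OXPT were −1.40 with esiCT, −1.15 with esiHDAC4 and −1.20 with #11, and none was called (adjusted p = 0.124 to 0.176, edgeR). That with #11 was called without WT untreated replicate 2 (−1.21, adjusted p = 0.048). With esiCT it went from 2.19, 0.74 and 1.58 to 0.64, 0.36 and 0.71 CPM. With #11 it went from 4.07, 4.43 and 6.31 to 1.65, 2.54 and 2.24 CPM. In both cases the groups did not overlap.

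Of the sensors, STING1 moved and IFIH1 did not pass the test. STING1, the adaptor through which cytosolic DNA signals, was at 16.7, 11.9 and 28.7 CPM in untreated KO esiCT and at 44.3, 32.7 and 75.0 with OXPT. In KO esiHDAC4 it was at 17.5, 12.04 and 17.9 CPM untreated and at 35.9, 34.6 and 54.0 with OXPT. Neither pair overlapped, and it rose by 1.41 on the log2 scale (SE 0.39, adjusted p = 0.023, edgeR) and by 1.39 (SE 0.39, adjusted p = 0.024, edgeR). Without the 4 libraries with a length shift the values were 1.04 and 1.14, and both were called.

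In KO #11, STING1 was at 36.2, 35.99 and 32.4 CPM untreated and at 77.5, 68.1 and 48.0 with OXPT, without overlap. In WT it was at 29.2, 16.3 and 48.9 CPM untreated and at 59.2, 40.3 and 84.8 with OXPT, with overlap. The log2 fold changes of 0.89 and 0.97 were not called (adjusted p = 0.165 and 0.117, edgeR), but both were with the replicate block (0.91 and 1.01, adjusted p = 0.043 and 0.025). The call in KO esiCT was lost without OXPT replicate 3 (1.01, adjusted p = 0.137) or without untreated replicate 1 or 2. That in KO esiHDAC4 was lost without OXPT replicate 3 (1.15, adjusted p = 0.11) or without any 1 of its untreated libraries.

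IFIH1 (MDA5), which recognizes long double-stranded RNA, lay between 1.19 and 5.86 CPM, with log2 fold changes of −0.23 to −0.08 under OXPT and adjusted p of 0.809 to 0.935. RIGI, which recognizes RNA with a 5′ triphosphate, and CGAS were below the count minimum in every group.

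IFI6, a mitochondrial and endoplasmic reticulum protein that protects against cell death, had log2 fold changes of 1.00 to 1.35 in all 4 backgrounds and was called in KO esiHDAC4. There it was at 16.5, 10.6 and 19.8 CPM untreated and at 34.5, 24.3 and 60.4 with OXPT, without overlap, a log2 fold change of 1.35 (SE 0.41, adjusted p = 0.035, edgeR). It was 0.90 and not called without the 4 libraries with a length shift (adjusted p = 0.116), and the call was also lost without OXPT replicate 3 (0.91, adjusted p = 0.221), any 1 of the untreated libraries or KO #11 untreated replicate 2. With the replicate block IFI6 was called in all 4 backgrounds, at 1.01 in KO esiCT, 1.31 in KO esiHDAC4, 1.02 in KO #11 and 1.04 in WT. Part of its exons overlaps the noncoding gene LINC02574 on the same strand.

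IFI35, which binds the signalling protein NMI, was at 8.56 to 15.2 CPM in untreated KO esiCT and at 11.3 to 25.5 with OXPT. In WT untreated replicate 3 it reached 64.1 CPM, against 19.3 and 9.30 in the other replicates, and none of its log2 fold changes under OXPT (−0.65 to 0.66) was called. The mitochondrial protein IFI27 lay between 8 and 70 counts per library and was not tested.

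Among the transcription factors, IRF1, which responds to interferon gamma and to DNA damage, separated the groups in KO esiCT and KO esiHDAC4. In KO esiHDAC4 it was at 10.7, 9.58 and 11.6 CPM untreated and at 21.0, 21.1 and 30.1 with OXPT, without overlap (log2 fold change 1.18, standard error 0.48, adjusted p = 0.116, edgeR). In KO esiCT it was at 11.6, 11.8 and 15.6 CPM untreated and at 19.9, 19.4 and 35.2 with OXPT, also without overlap (0.93, adjusted p = 0.223). Neither was called here, but both were without the 4 libraries with a length shift (0.98 and 0.62, adjusted p = 0.0021 and 0.042). In KO esiHDAC4 it was called with the replicate block (1.14, adjusted p = 0.028), and in both without WT untreated replicate 3 (1.17 and 0.92).

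In WT, IRF1 was at 11.9, 9.67 and 59.8 CPM untreated and at 18.9, 19.4 and 36.1 with OXPT. The log2 fold change of −0.12 (adjusted p = 0.907) turned to 1.22 without untreated replicate 3 (adjusted p = 0.015). IRF7, which amplifies the interferon response, followed the same library, with 59.0 CPM there and 6.39 to 25.7 in the others, and was not called. STAT2, a part of the complex that binds the ISRE, was steady, at 22.4 to 54.0 CPM with log2 fold changes of −0.07 to 0.24. IRF9, which belongs to the same complex, had a median of 16 counts.

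None of the tested IFIT and OAS genes was called under OXPT. IFIT1, which binds RNA lacking cap methylation, was at 5.12, 2.05 and 6.93 CPM in untreated KO esiCT and at 3.29, 1.59 and 2.50 with OXPT. Its log2 fold changes were −0.92, −0.92, 0.56 and −0.49 in KO esiCT, KO esiHDAC4, KO #11 and WT, with none called (adjusted p = 0.234 to 0.581, edgeR). IFIT5, a paralog, lay between 9.72 and 23.5 CPM and had log2 fold changes of 0.10 to 0.29.

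OAS3, a synthase of 2-5A that activates RNase L, was at 41.5, 54.5 and 28.0 CPM in untreated WT and at 27.2, 27.7 and 23.2 with OXPT, without overlap. In KO esiHDAC4 it was at 38.8, 40.3 and 38.9 CPM untreated and at 29.0, 23.7 and 20.2 with OXPT, also without overlap. The log2 fold changes of −0.67 and −0.69 were not called (adjusted p = 0.076 and 0.062, edgeR). Both were called lower with the replicate block (−0.65 and −0.71, adjusted p = 0.038 and 0.022) and by DESeq2 (−0.71 and −0.70, adjusted p = 0.032 and 0.033). The WT value was also called without untreated replicate 3 (−0.88), and that in KO esiHDAC4 without any of 5 libraries, WT untreated replicate 2 or 3, KO esiCT OXPT replicate 1, its own OXPT replicate 1 or KO #11 untreated replicate 3 (−0.83 to −0.70). OASL, a relative without synthase activity that boosts RIGI signalling, had log2 fold changes of 0.26 to 0.73 and none called. OASL in WT was called with replicates 1 and 2 of every group alone (1.01, adjusted p = 0.035). MX1, with 8 to 52 counts per library, was not tested.

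PARP9 and PARP14, of the PARP family, are partners in interferon signalling. Their log2 fold changes under OXPT were −0.27 to 0.37 and −0.03 to 0.03, in this order, and neither gene was called. PARP14 was at 13.5, 13.7 and 7.78 CPM in untreated KO esiCT and at 17.1, 15.8 and 1.79 with OXPT, so that its spread within a group was wider than any difference. SP100, a scaffold of PML nuclear bodies, was at 40.4, 39.9 and 22.6 CPM in untreated KO esiCT and at 63.96, 64.5 and 38.9 with OXPT. Its log2 fold changes were 0.70, 0.67, 0.40 and 0.56 in KO esiCT, KO esiHDAC4, KO #11 and WT, with none called (adjusted p = 0.081 to 0.381, edgeR). It was called in KO esiCT with the replicate block (0.71, adjusted p = 0.039), and in KO esiCT, KO esiHDAC4 and WT without the 4 libraries with a length shift (0.92, 0.82 and 0.75).

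TRIM22, a ubiquitin ligase that is also a known p53 target, was below the count minimum. Its reads were 5, 0 and 5 in untreated KO esiCT and 53, 12 and 4 with OXPT, and 3, 11 and 8 in untreated WT and 32, 22 and 15 with OXPT. The WT counts did not overlap. In a fit without a count minimum it was called in KO esiCT (log2 fold change 2.61, adjusted p = 0.0011, edgeR) and KO esiHDAC4 (1.93, adjusted p = 0.013).

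HDAC4 silencing gave no call among the 34 genes. In untreated KO cells 0 of the 20 tested genes were called by edgeR, 0 had an unadjusted p under 0.05 and DESeq2 called 0, where 0.00809% of all genes were called. Under OXPT the count was again 0 on all 3 measures, where 0% of all genes were called (0 genes by edgeR, 380 at an unadjusted p under 0.05 and 9 by DESeq2). The lowest p was that of OAS3 under OXPT (log2 difference −0.47, standard error 0.24, adjusted p = 1.00). IFIT1 was at 9.45, 4.65 and 11.6 CPM in untreated KO esiHDAC4, against 5.12, 2.05 and 6.93 in KO esiCT, a log2 difference of 0.86 (SE 0.47, adjusted p = 1.00).

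Degrader #11 gave no call by edgeR either. In untreated KO cells 0 of the 20 were called, with 2 at an unadjusted p under 0.05 and 1 called by DESeq2, where 0.51% of all genes were called. That gene was BST2, at 4.07, 4.43 and 6.31 CPM with #11 and at 2.19, 0.74 and 1.58 with esiCT alone. The groups did not overlap, and the log2 difference was 1.71 (SE 0.50, adjusted p = 0.111 by edgeR and 0.043 by DESeq2). It was also called without the 4 libraries with a length shift (1.72, adjusted p = 0.032) and without WT untreated replicate 2 (1.71, adjusted p = 0.044). BST2 was tested only because of its level in this #11 group, so these calls are not independent of the count minimum.

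Under OXPT, 0 of the 20 were called between #11 and esiCT by edgeR or DESeq2, with 3 at an unadjusted p under 0.05, where 0.121% of all genes were called. BST2 was again higher in all 3 #11 libraries than in any esiCT library (1.65, 2.54 and 2.24 against 0.64, 0.36 and 0.71 CPM), with a log2 difference of 1.91 (SE 0.57, adjusted p = 0.234, edgeR). SP100 lay lower, at 36.1, 32.1 and 34.1 CPM against 63.96, 64.5 and 38.9, a log2 difference of −0.71 (adjusted p = 0.332), and was called without the 4 libraries with a length shift (−0.95, adjusted p = 0.017).

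Set against HDAC4 silencing rather than esiCT, #11 also gave no call among the 20 genes by edgeR or DESeq2, with 3 at an unadjusted p under 0.05 both untreated and under OXPT. The backgrounds were 1.17% and 0.0971% of all genes called. STING1 had the lowest p in untreated cells, with a mean ± SD (n = 3) of 34.9 ± 2.12 CPM with #11 and 15.8 ± 3.29 with esiHDAC4, without overlap. The log2 difference was 1.14 (SE 0.39, adjusted p = 0.158, edgeR), and it was called without the 4 libraries with a length shift (1.14, adjusted p = 0.014). These comparisons and those with esiCT share the #11 libraries.

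In the edgeR fit without a replicate block, genotype gave no call among the 20 genes. With the block it gave OASL alone, in untreated cells and under OXPT. Untreated KO esiCT against WT had 6 at an unadjusted p under 0.05 and 1 called by DESeq2, where 0.291% of all genes were called, and under OXPT 1 and 1, where 0.138% were called. Both calls by DESeq2 were OASL. OASL was at 3.62, 4.16 and 5.87 CPM in untreated KO esiCT and at 14.3, 7.66 and 28.5 in WT, and with OXPT at 4.86, 7.37 and 8.81 against 18.1, 25.5 and 36.3. In neither state did KO and WT overlap.

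The log2 differences of OASL were −1.88 untreated (SE 0.50, adjusted p = 0.163, edgeR) and −1.93 under OXPT (SE 0.50, adjusted p = 0.311, edgeR), and DESeq2 gave adjusted p of 0.018 and 0.043. The numbers pair the libraries here, and with the replicate block both were called by edgeR (−1.78 and −1.90, adjusted p = 0.0023 and 0.0018). Without WT untreated replicate 2 the untreated difference was also called (−2.23, adjusted p = 0.041), and without the 4 libraries with a length shift it was −1.26 and not called (adjusted p = 0.469). The difference under OXPT was −1.84 and not called without them (adjusted p = 0.243). ISG15, ISG20 and IFI35 followed OASL in p in untreated cells, with log2 differences of −1.32, −2.03 and −1.30 (adjusted p = 0.558 to 0.581), and without WT untreated replicate 3 these were −0.21, 0.09 and −0.18.

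The differences between OXPT responses were tested as interactions. None of the 20 genes was called for genotype, HDAC4 silencing or #11 by edgeR or DESeq2, with 1, 0 and 1 at an unadjusted p under 0.05. Over all genes the interactions gave 0%, 0% and 0% called by edgeR, with 201, 19 and 863 at an unadjusted p under 0.05 and 0, 0 and 36 called by DESeq2. Differences in the OXPT response between these backgrounds were thus not shown for the 20 tested genes. In a fit without a count minimum, over all 34 genes, ISG20 was called for genotype and for #11. The largest interactions were those of ISG20, 2.18 for genotype (SE 1.03) and −2.11 for #11 (SE 1.04), with adjusted p of 1.00 and 0.725. That for genotype was −0.71 without the 4 libraries with a length shift.

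Around these genes, 86 others of the interferon pathway were listed and 55 tested. Most of the interferons themselves had few or no reads. Over 24 libraries IFNB1 had 4 reads, IFNA1 1, IFNA2, IFNK and IFNG 0, and the lambda interferons IFNL1, IFNL2 and IFNL3 24, 11 and 12. IFNE, an epithelial interferon, had 345 reads in 23 libraries. Its reads were 2, 5 and 3 in untreated KO esiCT and 27, 32 and 4 with OXPT, with overlap, and 2, 7 and 0 in untreated WT and 21, 28 and 12 with OXPT, without overlap. In KO esiHDAC4 they summed to 58 untreated and 84 with OXPT, and in KO #11 to 22 and 38. None of the 9 ligands was tested.

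Under OXPT, 8 of the 55 were called in KO esiCT (7 rose), 6 in KO esiHDAC4 (5 rose), 3 in KO #11 (all rose) and 5 in WT (4 rose). These are shares of 14.5%, 10.9%, 5.45% and 9.09%, near or below the shares of all genes called (11.3%, 12%, 9.51% and 10.7%). The median log2 fold changes were 0.32, 0.32, 0.21 and 0.15. Of these 22 calls, 20 were also made without the 4 libraries with a length shift, and those of TAP2 and NLRC5 in KO esiCT were not. Among the receptors and JAK-STAT genes, only STAT3 rose, in 3 of the 4 backgrounds, by 1.09 in KO esiHDAC4, 0.99 in KO esiCT and 0.85 in WT. STAT3 was also higher with #11 than with HDAC4 silencing in untreated KO cells, at 116, 122 and 126 CPM against 38.8, 33.7 and 66.1, a log2 difference of 1.40 (adjusted p = 0.0073, edgeR). With esiCT it was at 87.1, 80.1 and 95.4 CPM. Among the genes of antigen presentation, TAP1, which pumps peptides into the endoplasmic reticulum, rose in all 4, by 1.29 in KO esiCT, 1.54 in KO esiHDAC4, 1.69 in KO #11 and 1.89 in WT.

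TAP1 was at 36.1, 39.3 and 47.0 CPM in untreated KO esiCT and at 151, 115 and 32.4 with OXPT, with overlap through replicate 3. In WT it was at 39.4, 37.8 and 40.8 CPM untreated and at 124, 119 and 193 with OXPT, without overlap. NLRC5, the activator of MHC class I genes, fell by 0.79 in KO esiHDAC4, 0.65 in KO esiCT and 0.67 in WT. PML, which builds nuclear bodies, rose in all 4 backgrounds, by 0.92 to 1.52.

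The sensing adaptor TICAM1 rose in 3 backgrounds, by 0.86 to 0.98. TLR3, the endosomal RNA sensor that signals through it, was called in KO esiHDAC4, by 2.14 (SE 0.70, adjusted p = 0.04997, edgeR). It went from 0.74 to 1.75 CPM untreated to 1.40 to 11.7 with OXPT, with overlap. The OXPT counts there were 193, 58 and 17, and only in this group did the mean (89.3) reach the count minimum. TLR3 was thus tested only through the group in which it was called higher. TAP2, ERAP2 and SP110 were called in KO esiCT and TRIM5 in KO #11, each of them higher. Whether these responses differ between backgrounds was tested by the interactions above, and no gene of the 55 was called there.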

How the data were processed

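The authors deposited 1 table of raw read counts per library, unnormalized, with 62757 versioned Ensembl genes and separate columns for unstranded, forward and reverse counting. Per the submitters' processing notes, reads were handled with Trimmomatic 0.39 and STAR 2.7.11a on hg38. The paper's methods describe salmon and DESeq2 instead, so the deposited counts are not the values tested there. The library kit is labelled as stranded, but reverse and forward counts stood in a ratio of 1.00 to 1.02, and the unstranded counts were used here (4.25% of reads on no gene and 11.2% ambiguous, medians). Without strand, reads of overlapping antisense genes cannot be told apart.

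Counts were tested with edgeR 4.0.16 in R 4.3.3 (TMM, quasi-likelihood F test) in 1 model of the 24 libraries with 1 coefficient per group, for the 12356 genes whose mean count reached 64 in 1 or more groups. A gene was called at a fold change over 1.5 and p below 0.05 after Benjamini-Hochberg adjustment. Standard errors are approximate (the absolute log2 fold change divided by the root of F), and levels are CPM after TMM. Groups come from the labels, and 15 comparisons were made. Alternatives were reverse-strand counts, RLE size factors, DESeq2 1.42.0, no count minimum, a minimum of 64 in every group, a fit of the compared groups alone, a replicate block, and leaving out each of 24 libraries. Replicates 1 and 2 alone, and the 20 libraries with a length shift of at most 0.5, were chosen after seeing the data. No limit was set on the low side, and WT untreated replicate 2 (−0.85) is among the 20. The length shift is the difference between the medians, over genes under 2820 and over 9022 bases of exon, of the deviation of log2 CPM from the gene's median over the 24 libraries.

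Replicate numbers were taken to pair libraries where the 3 correlations of same-numbered deviations all exceeded 0.1. This held for the 4 OXPT comparisons (lowest 0.18, highest 0.69), for silencing and for KO against WT, and not for #11 (lowest −0.25 in untreated KO). Replicates of a group differed by more than counting noise. The scripts were tested on simulated data. Of genes changed 2-fold, 13.4% to 29.3% were called between 2 groups and 4.04% to 7.14% in the interactions. Of genes changed 4-fold, 86.9% to 100% and 50% to 68% were called. A comparison without calls therefore does not show that the genes were unchanged. By the rule for named genes, every member is named. Full statistics go to members called in a comparison or, where few are called, to up to 4 with the lowest p, and values of every library to members called anywhere and to the most abundant of each role. Of the pathway lists, at most 4 genes each are named, by lowest p. The members and lists were chosen with earlier results of these data known. Gene positions and exon lengths come from GENCODE 44 on GRCh38 and promoters from RefSeq (GRCh38.p14). Counting floors cover counting error only.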

Additional observations from a re-analysis of the deposited data

Results flagged for a closer look

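Outside the comparisons, the 12 WT libraries with contradictory labels on OXPT held USP18 at a median of 12.3 CPM (7.22 to 16.8), and all 12 stood above the highest library of WT untreated, the group of the same cells without drug.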

How the results depend on the processing

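Counts of called members moved with the settings, and so did the genes tested. Of the 34, 20 were tested in most settings, 34 with no count minimum, 18 with reverse-strand counts, 17 with a minimum in every group and 17 to 20 in fits of the compared groups. The share of all genes called is given in parentheses. With OXPT in KO esiCT (3 called) there were 6 with no minimum (4.35%, TRIM22 among them) and with the block (15.7%). There were also 6 with replicates 1 and 2 (17.4%) and in the 20 libraries with a length shift of at most 0.5 (16%). In the compared groups there was 1 (4.71%). In KO esiHDAC4 (5) there were 3 with a minimum in every group (9.06%), 7 with the block (16.7%) and 8 with replicates 1 and 2 (18%). In KO #11 (1) there were 2 with no minimum (3.4%), 3 with the block (13.9%), replicates 1 and 2 (22.8%) and the 20 libraries (21.1%), and 4 in the compared groups (22.2%). In WT (2) there were 1 with reverse-strand counts (9.64%) or a minimum in every group (8.03%), 6 with the block (15.3%), 0 in the compared groups (0.713%) and 10 with replicates 1 and 2 (20.9%) or in the 20 libraries (17.1%). Comparisons with 0 calls gained some. For #11 in untreated KO there was 1 with no minimum (1.12%), the block (3.21%), the compared groups (4.78%) or DESeq2 (3.31%), 3 with replicates 1 and 2 (14.5%) and 2 in the 20 libraries (8.67%), and under OXPT 1 with no minimum (0.856%), replicates 1 and 2 (11.5%) or the 20 libraries (8.28%). For KO against WT there were 4 untreated with no minimum (0.751%) and 1 with the block (0.607%) or DESeq2 (0.947%), and under OXPT 1 with no minimum (0.212%), the block (0.202%), DESeq2 (0.243%) or replicates 1 and 2 (0.296%). For #11 against silencing there were 2 untreated with no minimum (1.73%), 1 with the block (4.73%), 5 in the compared groups (14.6%), 4 with replicates 1 and 2 (18%) and 3 in the 20 libraries (12.2%), and under OXPT 2 (20.9%) and 1 (17.7%) in the last pair of settings. The interactions of genotype (0.056%) and of #11 (0.152%) gave 1 each with no minimum. Leaving out 1 library gave 1 to 5 calls in KO esiCT, 1 to 8 in KO esiHDAC4, 0 to 2 in KO #11, 2 to 7 in WT, and 0 to 1 for #11 and for KO against WT in untreated cells. Signs turned for IRF1 in WT (0.024 on the reverse strand, 0.078 with the block, 0.85 with replicates 1 and 2, 0.86 in the 20 libraries, −0.53 to 1.22 without 1 library), IFITM2 in WT (−0.10 without untreated replicate 2), ISG20 in WT (1.11, 1.12 and 1.48 with replicates 1 and 2, in the 20 libraries and without untreated replicate 3, −1.14 at the lowest without 1 library), ISG20 between KO and WT untreated (0.088 in the 20 libraries, −2.51 to 0.087 without 1 library) and its genotype interaction (−0.39 with replicates 1 and 2 and −0.71 in the 20 libraries). The cause was not tested. In the comparisons for which no count with the block is given here, the block changed no call. BST2 missed the count minimum on the reverse strand, in every group and, for WT, in the compared groups.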

Other observations

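In the same 12 libraries, which the labels put in no group and which are not replicates, ISG15 ranged from 108 to 673 CPM with a median of 466, IFITM3 from 161 to 693 (median 419) and STING1 from 17.9 to 75.8 (median 42.3). BST2 ranged from 0.38 to 7.43 CPM (median 3.36) and ISG20 from 11.7 to 68.3 (median 28.3). The highest BST2 value lay above the 6.06 CPM that was the highest of the 24 grouped libraries when all 36 were normalized together.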
